A study of Mus musculus with 24 samples.

Results

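The NF-kappaB genes described here are the 5 subunits of the transcription factor (Nfkb1, Nfkb2, Rel, Rela and Relb), 3 of its inhibitors (Nfkbia, Nfkbie and Tnfaip3) and the 2 receptors for tumour necrosis factor, TNF (Tnfrsf1a and Tnfrsf1b). The 10 genes were taken by name from a table of 54446 gene IDs, and all 10 were among the 15216 genes tested, those with a mean of at least 0.5 FPKM over the 24 libraries. FPKM is a level of expression, fragments of a gene scaled to its length and to the size of the library. Polyadenylated RNA had been sequenced in bulk from mouse corpus callosum, the large white matter tract between the hemispheres. The groups were cuprizone mice given an inhibitor of Bruton's tyrosine kinase (BTKi, n = 8), cuprizone mice given vehicle (n = 8), naive mice given BTKi (n = 4) and naive mice given vehicle (n = 4). Cuprizone is a copper-binding compound whose feeding kills oligodendrocytes and strips myelin, and the inhibitor followed the induction of disease. The sources used here name no strain, age, compound, dose or duration. Whether each library is a separate animal is not labelled, and p-values then measure only how far these samples vary, which may be technical variation.

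NF-kappaB is a family of dimeric transcription factors held in the cytoplasm by inhibitors of the IkappaB family. When TNF, interleukin-1 or a Toll-like receptor ligand binds its receptor, adaptors and ubiquitin enzymes switch on the IKK kinases, the inhibitor is degraded, and dimers such as Rela with the Nfkb1 product enter the nucleus. A slower route through the kinase NIK processes the Nfkb2 product and releases dimers with Relb. Nfkbia, Nfkbie, Tnfaip3, Nfkb2, Rel and Relb are themselves known targets of NF-kappaB, so that several of the inhibitors act as negative feedback. In white matter the pathway is best known for driving inflammatory genes in microglia and astrocytes. In B cells BTK carries signals of the antigen receptor to NF-kappaB through phospholipase C gamma and protein kinase C.

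The DNA element that NF-kappaB binds could be read in the promoters of several of these genes. RefSeq promoter windows on GRCm38.p6, from 250 bases before to 50 bases after a transcription start, were at hand for 8 of the 10 genes (11 windows), and Nfkb1 and Relb had no entry. The kappaB consensus, searched on both strands with overlapping matches kept, stood in 7 of the 11 windows, belonging to 5 genes. Of those windows 3 are Nfkb2's, from different starts, and 2 of the 3 overlap and share a match, so the windows are not independent. Of all 32851 promoter windows of the same length in the table, 2779 (8.46%) held it and 402 (1.22%) held it at least 2 times. The 250 bases before the start of those 5 genes are printed to show where the matches stand, 5′ to 3′ on the strand of the gene, with matches in capitals. The stretches are chr19:46304487-46304736 on the plus strand for Nfkb2, chr11:23770970-23771219 on the minus strand for Rel, chr12:55492648-55492897 on the minus strand for Nfkbia, chr17:45555450-45555699 on the plus strand for Nfkbie and chr10:19015411-19015660 on the minus strand for Tnfaip3.
Nfkb2: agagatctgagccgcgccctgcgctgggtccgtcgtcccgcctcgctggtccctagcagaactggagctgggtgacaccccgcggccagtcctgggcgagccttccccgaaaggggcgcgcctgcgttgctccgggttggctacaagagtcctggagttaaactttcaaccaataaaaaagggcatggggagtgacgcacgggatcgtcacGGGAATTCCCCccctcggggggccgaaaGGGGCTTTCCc
Rel: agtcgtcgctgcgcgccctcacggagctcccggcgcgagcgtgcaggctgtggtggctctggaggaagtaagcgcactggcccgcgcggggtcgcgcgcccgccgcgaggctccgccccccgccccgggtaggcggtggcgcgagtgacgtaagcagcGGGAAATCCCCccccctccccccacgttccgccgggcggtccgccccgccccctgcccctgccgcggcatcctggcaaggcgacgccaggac
Nfkbia: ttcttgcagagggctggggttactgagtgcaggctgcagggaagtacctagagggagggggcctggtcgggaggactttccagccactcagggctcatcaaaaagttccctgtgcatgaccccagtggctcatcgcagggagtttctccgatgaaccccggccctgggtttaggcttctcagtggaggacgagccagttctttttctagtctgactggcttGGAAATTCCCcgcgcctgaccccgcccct
Nfkbie: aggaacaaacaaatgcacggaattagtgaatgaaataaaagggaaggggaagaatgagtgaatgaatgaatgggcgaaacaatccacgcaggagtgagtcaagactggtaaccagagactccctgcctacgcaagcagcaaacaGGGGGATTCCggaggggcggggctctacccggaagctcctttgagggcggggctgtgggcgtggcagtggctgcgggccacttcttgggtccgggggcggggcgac
Tnfaip3: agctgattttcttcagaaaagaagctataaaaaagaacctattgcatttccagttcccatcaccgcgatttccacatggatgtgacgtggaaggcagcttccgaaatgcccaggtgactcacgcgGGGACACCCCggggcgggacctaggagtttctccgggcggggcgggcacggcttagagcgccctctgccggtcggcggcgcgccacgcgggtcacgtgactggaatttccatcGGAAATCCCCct

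Counted from the start, with bases before it negative, the match in Nfkbia ran from -29 to -20. Its letters on the strand of the gene are GGAAATTCCC, and the consensus is read there on the opposite strand. Nfkb2 held a pair of overlapping matches between -39 and -29 and another, GGGGCTTTCC, from -11 to -2. Rel likewise held overlapping matches, between -92 and -82. In Tnfaip3 the matches ran from -125 to -116 and from -12 to -3, and in Nfkbie the match (GGGGGATTCC) ran from -106 to -97. The windows of Rela, Tnfrsf1a and Tnfrsf1b did not hold these letters. A match is a description of the sequence, and binding was not measured.

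Total FPKM ran from 462521 to 496350 over the libraries, and 14930 to 15435 genes reached 0.5 FPKM in each, but the number of fragments behind a value is not given. The 10 microglia markers, among them P2ry12, Tmem119 and Csf1r, summed to 325 to 643 FPKM in cuprizone BTKi, 300.4 to 851 FPKM in cuprizone vehicle, 186 to 212 FPKM in naive BTKi and 183 to 218 FPKM in naive vehicle libraries. The 8 oligodendrocyte markers were present in every group and lower in cuprizone mice, at 499 to 1092 and 466 to 811 FPKM in cuprizone BTKi and cuprizone vehicle libraries, against 1275 to 1328 and 1555 to 2232 FPKM in naive BTKi and naive vehicle libraries. The 8 general neuron markers, among them Snap25 and Slc17a7, summed to 2001 to 2249 FPKM in cuprizone BTKi and 2125 to 2412 FPKM in cuprizone vehicle libraries. In naive BTKi and naive vehicle libraries they summed to 2115 to 2356 and 1995 to 2353 FPKM. Neuronal transcripts were thus abundant in this tissue, and their part in the levels of the 10 genes was not tested. Of the 6 B cell markers, Ms4a1 and Pax5 were at or near 0 (highest 0.111 and 0.121 FPKM), while Ighm stood at 23.0 to 36.3 FPKM in the libraries and made up most of the list's sum. Of the 6 neutrophil markers, Ly6g was at 0 in all 24 libraries. S100a8, S100a9, Mpo and Elane had medians of 0.135, 0.254, 0.0067 and 0 FPKM. Csf3r, the 1 marker that passed the filter, ran from 1.81 to 11.0 FPKM. Csf3r was higher in cuprizone mice by log2 changes of 1.35 under vehicle and 1.36 under BTKi. Its libraries did not overlap in either comparison, where the figures over all genes tested were 5.92% and 5.70%. Csf3r alone does not stand for the neutrophil list, whose other markers were near 0. Libraries that stood apart were cuprizone vehicle 1, 4 and 7, whose 8 choroid plexus markers summed to 124, 31.1 and 36.6 FPKM against 759 to 1531 FPKM in the other cuprizone vehicle libraries. Naive vehicle 2 also stood apart, with 8 striatal neuron markers summing to 672 FPKM against 231 to 384 FPKM in the other naive vehicle libraries, and oligodendrocyte markers to 2232 FPKM against 1555 to 1725 FPKM. Cuprizone vehicle 8 and cuprizone BTKi 8 were highest in microglia markers in their groups. The results were also computed without the 3 libraries poor in choroid plexus markers, and without both libraries highest in microglia markers, choices made after the data were seen.

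In cuprizone mice given vehicle, compared with naive mice given vehicle, both TNF receptors, 3 of the 5 subunits (Nfkb1, Nfkb2 and Relb) and the inhibitor Tnfaip3 were higher, by log2 changes of 0.31 to 0.75. None of the 10 genes was lower. Rela, Rel, Nfkbia and Nfkbie had positive changes that did not pass. The question is how the transcripts of the pathway's own components differ in this tissue after cuprizone. Changes are differences of log2(FPKM + 0.5), tested with limma on all 4 groups at an adjusted p of 0.05, and that scale understates the change of low genes. Called higher were thus 6 of 10 genes, where 10.2% of all genes tested were called higher (15.0% in either direction). At an unadjusted p under 0.05 there were 9 of 10, where the figure over all genes tested was 27.4%. The median change of the 10 genes was 0.38, against 0.03 over all genes tested. Libraries did not overlap, with all 8 cuprizone vehicle values above all 4 naive vehicle values, for 6 of 10 genes (Tnfrsf1a, Tnfrsf1b, Nfkb2, Relb, Tnfaip3 and Nfkbie), where the figure over all genes tested was 5.92%.

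**Figure D1:**
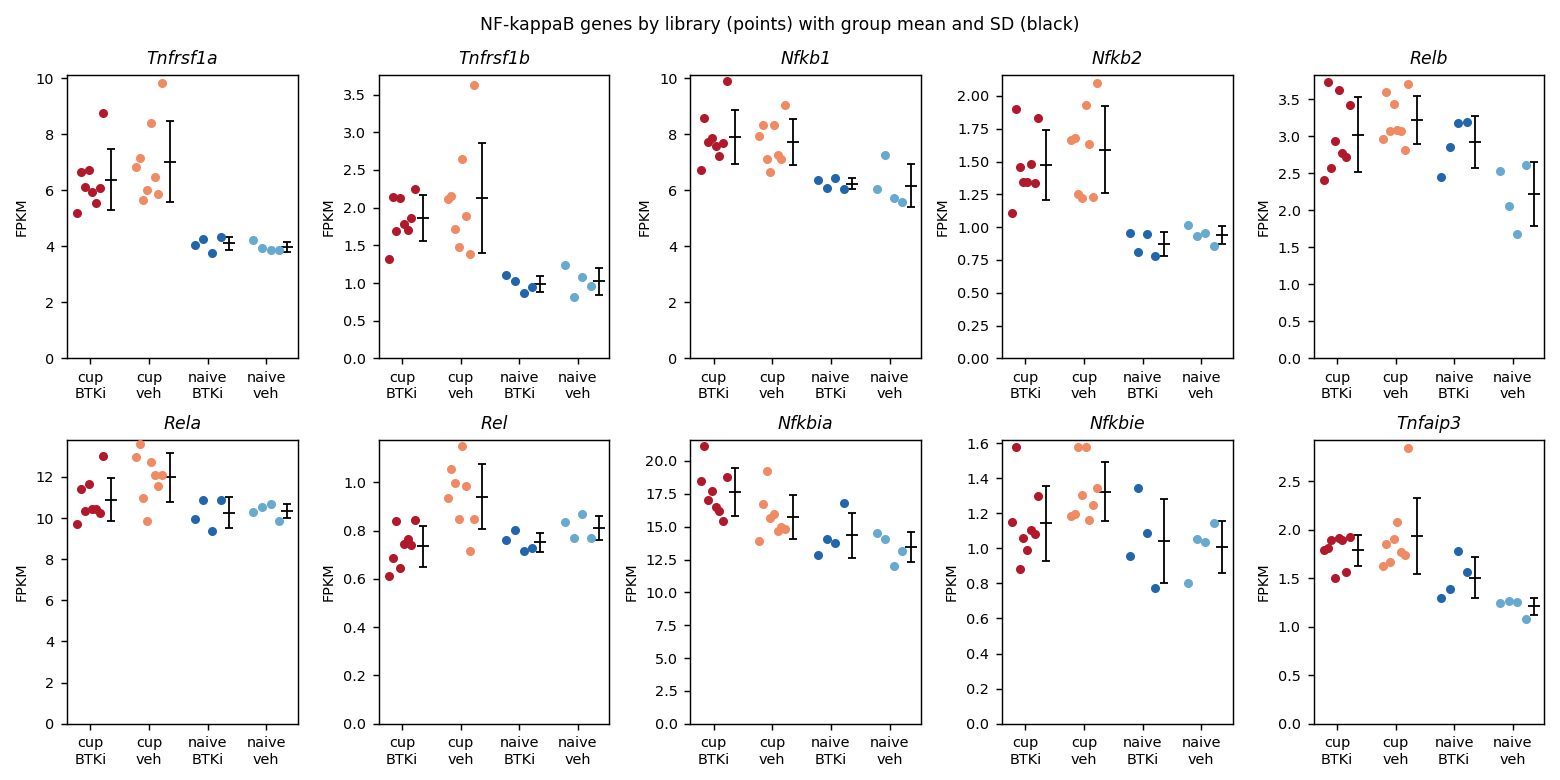
Level in FPKM (vertical axis, from 0) of the 10 genes in each of the 24 libraries, with the groups from left to right cuprizone BTKi, cuprizone vehicle, naive BTKi and naive vehicle (cup is cuprizone, veh is vehicle). Points are libraries and black bars the group mean with its SD. All cuprizone points of Tnfrsf1a, Tnfrsf1b and Nfkb2 lie above all naive points, whereas Rel and Rela overlap between groups.

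Tnfrsf1a encodes the widely expressed TNF receptor with a death domain, which recruits Tradd and Ripk1. The gene (ENSMUSG00000030341.17, protein-coding) is found on chromosome 6 (plus strand), between 125349362 and 125362484 in GENCODE M21 on GRCm38, the annotation used for all gene positions here. Its level was 5.66, 6.64 and 9.82 FPKM (lowest, median and highest) in cuprizone vehicle libraries, against 4.23, 3.95, 3.87 and 3.86 FPKM in the 4 naive vehicle libraries. Each cuprizone vehicle library was above each naive vehicle library, and the cuprizone values were the more spread. The means were 7.02 ± 1.43 FPKM (SD, n = 8) in cuprizone vehicle and 3.98 ± 0.173 FPKM (SD, n = 4) in naive vehicle mice, which is a log2 change of 0.73 (SE of 0.12, limma adjusted p = 6.62e-05).

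Tnfrsf1b, the TNF receptor without a death domain, is known mainly from immune cells and microglia. It is found on chromosome 4 (minus strand), between 145213463 and 145246870 (ENSMUSG00000028599.10, protein-coding). Cuprizone vehicle libraries held 1.38, 2.01 and 3.63 FPKM (lowest, median and highest), against 1.24, 0.813, 1.08 and 0.958 FPKM in naive vehicle libraries. The groups did not overlap, though the lowest cuprizone value stood close to the highest naive value. The log2 change was 0.75 (SE 0.15, limma adjusted p = 0.000868), from means of 2.13 ± 0.728 FPKM (SD, n = 8) in cuprizone vehicle and 1.02 ± 0.18 FPKM (SD, n = 4) in naive vehicle mice.

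The 2 receptors moved with the microglia markers. Of the 10 markers 8 were called higher and 0 lower in cuprizone vehicle mice, with a median log2 change of 0.97, and none of the 10 was at 0 in any library. The exceptions were P2ry12 and Tmem119, with changes of -0.02 and 0.09 (limma adjusted p = 0.908 and 0.663). Cuprizone vehicle 8, highest in microglia markers at 851 FPKM, was the highest cuprizone vehicle library for both receptors and for Nfkb1, Nfkb2, Relb and Tnfaip3, 6 of the 10 genes. For Rel and Nfkbia it ranked 6 of 8, and the share over all genes tested was not computed. Cuprizone vehicle 7, lowest in microglia markers at 300.4 FPKM, was the lowest of its group for Tnfrsf1b, Rel and Relb. In bulk tissue fewer cells of a type and less RNA per cell cannot be told apart, and the part of microglial number in these changes was not tested. Without cuprizone vehicle 8 and cuprizone BTKi 8 the change was 0.66 for Tnfrsf1a and 0.65 for Tnfrsf1b (limma adjusted p = 3.87e-06 and 0.000551). The astrocyte markers moved too, with 4 of 8 called higher and 1 lower, while of the endothelium and general neuron markers 0 of 8 each were called. Striatal neuron markers had 8 of 8 called lower (median -0.94), and choroid plexus markers had 1 of 8 called lower with all 8 negative at an unadjusted p under 0.05 (median -1.30). The part of these tissues in the changes of the 10 genes was not tested. Without naive vehicle 2, the library of its group highest in both lists, the same number of the 10 genes, 6, was called, with changes of 0.73 for Tnfrsf1a and 0.68 for Tnfrsf1b (limma adjusted p = 0.000411 and 0.00644).

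**Figure D2:**
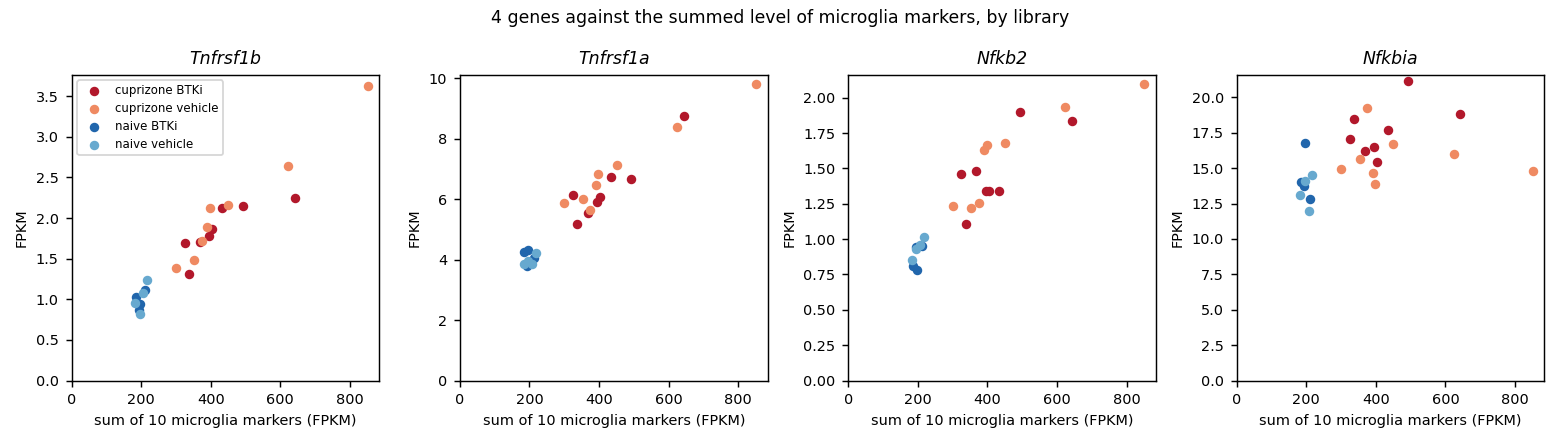
Level in FPKM of Tnfrsf1b, Tnfrsf1a, Nfkb2 and Nfkbia (vertical axes) against the summed FPKM of 10 microglia markers (horizontal axes), 1 point per library, coloured by group. The library at the far right, cuprizone vehicle 8 at 851 FPKM of markers, has the highest Tnfrsf1b, Tnfrsf1a and Nfkb2 of all libraries, but for Nfkbia stands at 14.8 FPKM, inside the range of the naive libraries.

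Among the subunits, Nfkb1 encodes the precursor of the small DNA-binding subunit of the classical dimer (ENSMUSG00000028163.17, chromosome 3, 135584655 to 135691547, minus strand). It measured 6.66, 7.61 and 9.06 FPKM (lowest, median and highest) in cuprizone vehicle libraries, against 6.06, 7.27, 5.73 and 5.57 FPKM in naive vehicle libraries. The groups overlapped through naive vehicle 2, at 7.27 FPKM, and 5 of the 8 cuprizone vehicle libraries were above it. Naive vehicle 2 is the library that stood apart in striatal and oligodendrocyte markers, and without it the change was 0.38 (limma adjusted p = 0.00354). The log2 change was 0.31 (SE 0.08, limma adjusted p = 0.0119), and without naive vehicle 4 it no longer passed (limma adjusted p = 0.0607).

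Nfkb2 encodes the precursor that the slower route processes (ENSMUSG00000025225.14, chromosome 19, 46304320 to 46312385, plus strand, matched without its version). Cuprizone vehicle libraries held 1.22, 1.65 and 2.10 FPKM (lowest, median and highest), against 1.01, 0.931, 0.957 and 0.853 FPKM in naive vehicle libraries. Every cuprizone vehicle library was above every naive vehicle library, by a log2 change of 0.52 (SE of 0.11, limma adjusted p = 0.00163). Of the 4584 exon bases of Nfkb2, 299 overlap exons of Psd on the opposite strand, a gene with a mean of 186 FPKM. AC114539.1, a long non-coding RNA also on the opposite strand, shares 531 of the exon bases, and no value was matched for it. Whether the counting used strand is not given, and Psd itself changed by 0.26 (limma adjusted p = 0.0215), so reads from the shared bases cannot be told apart here.

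Relb, the partner of processed Nfkb2, is found on chromosome 7 (minus strand), between 19606217 and 19629438 (ENSMUSG00000002983.17). It measured 2.81, 3.08 and 3.71 FPKM (lowest, median and highest) in cuprizone vehicle libraries, against 2.53, 2.07, 1.68 and 2.62 FPKM in naive vehicle libraries. The groups did not overlap, and the naive vehicle libraries were widely spread for so small a group. The log2 change was 0.46 (SE 0.11, limma adjusted p = 0.00331).

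Rela and Rel carry the transactivation domains of the classical dimers. Rela (ENSMUSG00000024927.7, chromosome 19, 5637483 to 5648130, plus strand, matched without its version) averaged 12.0 ± 1.19 FPKM (SD, n = 8) in cuprizone vehicle and 10.3 ± 0.362 FPKM (SD, n = 4) in naive vehicle mice. Its change of 0.20 did not pass (95% interval 0.05 to 0.35, limma adjusted p = 0.0650), though 7 of 8 cuprizone vehicle libraries were above all naive vehicle libraries. Without the 3 libraries poor in choroid plexus markers it passed, at 0.24 (limma adjusted p = 0.0295), and it also passed without cuprizone vehicle 4 or without cuprizone BTKi 8. Rel (ENSMUSG00000020275.9, chromosome 11, 23736847 to 23770970, minus strand), best known from lymphocytes, averaged 0.941 ± 0.136 FPKM (SD, n = 8) in cuprizone vehicle and 0.811 ± 0.0502 FPKM (SD, n = 4) in naive vehicle mice. The change of 0.13 did not pass (95% interval -0.03 to 0.29, limma adjusted p = 0.288).

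Since FPKM is scaled by length, the subunits can be set beside each other within a library. Rela made up 47.1% ± 2.07 and Nfkb1 30.3% ± 1.04 of the summed subunit FPKM in cuprizone vehicle libraries (SD, n = 8), against 50.6% ± 2.11 and 30.0% ± 2.48 in naive vehicle libraries (SD, n = 4). Nfkb2 took 6.19% ± 0.833 in cuprizone vehicle and 4.59% ± 0.305 in naive vehicle libraries, and Relb 12.7% ± 1.41 and 10.9% ± 2.26. Rel had the smallest share in both, at 3.70% ± 0.466 in cuprizone vehicle and 3.97% ± 0.330 in naive vehicle libraries. The classical subunits Rela and Nfkb1 thus made up most of the subunit transcripts in both groups. The sum of the 5 subunits was 25.5 ± 2.32 FPKM in cuprizone vehicle and 20.5 ± 0.862 FPKM in naive vehicle mice. The shares are given as levels and were not tested.

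Of the inhibitors, Tnfaip3 changed. It encodes a ubiquitin-editing enzyme that shuts down signalling from TNF and Toll-like receptors, and it is found on chromosome 10 (minus strand), between 19000910 and 19015657 (ENSMUSG00000019850.11). Cuprizone vehicle libraries held 1.63, 1.81 and 2.84 FPKM (lowest, median and highest), against 1.24, 1.26, 1.26 and 1.08 FPKM in naive vehicle libraries. No cuprizone vehicle library reached down to the naive range, and cuprizone vehicle 8 stood far above its group. The log2 change was 0.50 (SE 0.10, limma adjusted p = 0.000599), and 0.43 (adjusted p = 0.000335) without cuprizone vehicle 8 and cuprizone BTKi 8.

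Nfkbia, the inhibitor that is degraded and resynthesised within the classical loop, was the most abundant of the 10 genes, at the 68.6th percentile of genes tested by mean FPKM. It is found on chromosome 12 (minus strand), between 55489410 and 55492647 (ENSMUSG00000021025.8). Its levels were 13.9, 15.3 and 19.2 FPKM (lowest, median and highest) in cuprizone vehicle libraries, against 14.5, 14.1, 12.0 and 13.1 FPKM in naive vehicle libraries. The groups overlapped through the lowest cuprizone vehicle library, and the change of 0.22 did not pass (95% interval 0.05 to 0.38, limma adjusted p = 0.0727). Nfkbie, a further IkappaB protein (ENSMUSG00000023947.8, chromosome 17, 45555703 to 45563169, plus strand), averaged 1.32 ± 0.168 FPKM (SD, n = 8) in cuprizone vehicle and 1.01 ± 0.146 FPKM (SD, n = 4) in naive vehicle mice. Its libraries did not overlap, yet the change of 0.28 did not pass (95% interval 0.06 to 0.49, limma adjusted p = 0.0766).

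In mice given BTKi, cuprizone mice were compared with naive mice in the same way. Both TNF receptors, Nfkb1, Nfkb2 and Nfkbia were higher in cuprizone mice, and none of the 10 genes was lower. Relb and Tnfaip3, called under vehicle, did not pass here, and Nfkbia, not called under vehicle, did. Called higher were 5 of 10 genes, where 6.11% of all genes tested were called higher (7.87% in either direction). At an unadjusted p under 0.05 there were also 5 of 10, where the figure over all genes tested was 18.5%. The median change of the 10 genes was 0.24, against 0.02 over all genes tested. Libraries did not overlap for Tnfrsf1a, Tnfrsf1b, Nfkb1 and Nfkb2, 4 of 10 genes with all cuprizone values on top, where the figure over all genes tested was 5.70%.

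Tnfrsf1a measured 5.19, 6.10 and 8.76 FPKM (lowest, median and highest) in cuprizone BTKi libraries, against 4.06, 4.25, 3.77 and 4.32 FPKM in naive BTKi libraries. Its log2 change was 0.57 (SE 0.12, limma adjusted p = 0.00175). Tnfrsf1b measured 1.32, 1.82 and 2.25 FPKM in cuprizone BTKi libraries, against 1.11, 1.03, 0.867 and 0.942 FPKM in naive BTKi libraries, a change of 0.66 (SE 0.15, adjusted p = 0.00483). For both receptors every cuprizone library lay above every naive library. As under vehicle, 8 of the 10 microglia markers were higher and 0 lower, with a median change of 0.95. Cuprizone BTKi 8, highest of its group in those markers at 643 FPKM, was also its highest library for Tnfrsf1a, Tnfrsf1b, Nfkb1, Rel, Rela and Tnfaip3, 6 of the 10 genes. Cuprizone BTKi 3, lowest of its group in the markers, ranked 4 of 8 for Tnfrsf1a, 7 for Tnfrsf1b, 2 for Rel and 8 for Nfkbie, where 1 is highest. In the naive groups the library highest in the markers was highest for 2 of the 10 genes under BTKi and 4 under vehicle. The share over all genes tested was not computed.

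Nfkb1 held 6.74, 7.70 and 9.91 FPKM (lowest, median and highest) in cuprizone BTKi libraries, against 6.39, 6.09, 6.45 and 6.04 FPKM in naive BTKi libraries. Here the libraries were apart, and the log2 change of 0.31 (SE 0.08, limma adjusted p = 0.0170) was close in size to the one under vehicle. It did not pass without naive BTKi 2 or without naive BTKi 4 (highest adjusted p = 0.0605). Nfkb2 held 1.11, 1.40 and 1.90 FPKM in cuprizone BTKi libraries, against 0.954, 0.812, 0.946 and 0.779 FPKM in naive BTKi libraries, a change of 0.52 (SE 0.11, limma adjusted p = 0.00296). Of its antisense neighbours, Psd had a change of 0.05 in the same comparison (limma adjusted p = 0.812), and AC114539.1 had no value.

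Nfkbia held 15.4, 17.4 and 21.2 FPKM (lowest, median and highest) in cuprizone BTKi libraries, against 12.8, 14.0, 13.7 and 16.8 FPKM in naive BTKi libraries. The ranges overlapped through naive BTKi 4, and 5 of 8 cuprizone BTKi libraries were above it. The log2 change was 0.29 (SE 0.08, limma adjusted p = 0.0230). The call was lost without a filter on low values (adjusted p = 0.0568) and without naive BTKi 1, 2 or 3 (highest adjusted p = 0.116).

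Relb and Tnfaip3 differed most between the vehicle and BTKi arms of this comparison. Relb held 2.42, 2.86 and 3.73 FPKM (lowest, median and highest) in cuprizone BTKi libraries, against 2.45, 2.86, 3.19 and 3.20 FPKM in naive BTKi libraries, and its change was 0.04 (95% interval -0.18 to 0.25, limma adjusted p = 0.903). Tnfaip3 held 1.50, 1.85 and 1.92 FPKM in cuprizone BTKi libraries, against 1.29, 1.39, 1.78 and 1.56 FPKM in naive BTKi libraries, with a change of 0.19 (95% interval -0.01 to 0.39, adjusted p = 0.293). For both genes some naive BTKi libraries lay within the range of the cuprizone BTKi libraries, whereas under vehicle no naive library lay within the range of the cuprizone libraries. The test of the difference itself, the BTKi effect in cuprizone mice minus that in naive mice, did not pass for either. It was -0.42 for Relb (95% interval -0.73 to -0.12, limma adjusted p = 0.367) and -0.31 for Tnfaip3 (95% interval -0.59 to -0.03, adjusted p = 0.478). Of the 10 genes 0 passed this test, and 2 had an unadjusted p under 0.05. Over all genes tested 0.125% passed, and 9.74% had an unadjusted p under 0.05.

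The other genes gave smaller values under BTKi. Rela averaged 10.9 ± 1.06 FPKM (SD, n = 8) in cuprizone BTKi and 10.3 ± 0.753 FPKM (SD, n = 4) in naive BTKi mice, a change of 0.08 (limma adjusted p = 0.613). Nfkbie averaged 1.14 ± 0.212 and 1.04 ± 0.240 FPKM in cuprizone BTKi and naive BTKi mice, a change of 0.10 (adjusted p = 0.693). Rel averaged 0.735 ± 0.0844 FPKM in cuprizone BTKi and 0.751 ± 0.0394 FPKM in naive BTKi mice, a change of -0.02 (adjusted p = 0.923). Under vehicle these 3 genes did not pass either.

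BTKi was next compared with vehicle within cuprizone mice, to see what the inhibitor did to the pathway in demyelinated tissue. None of the 10 genes passed the test, and the changes ran from -0.22 to 0.16. Rel and Rela were lower and Nfkbia was higher at an unadjusted p under 0.05 only. Called were 0 of 10 genes by limma, where 0.177% of all genes tested (27 of 15216) were called. At an unadjusted p under 0.05 there were 3 of 10, where the figure over all genes tested was 8.79%. The median change was -0.10, with 8 of 10 genes negative, against -0.02 over all genes tested.

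**Figure D3:**
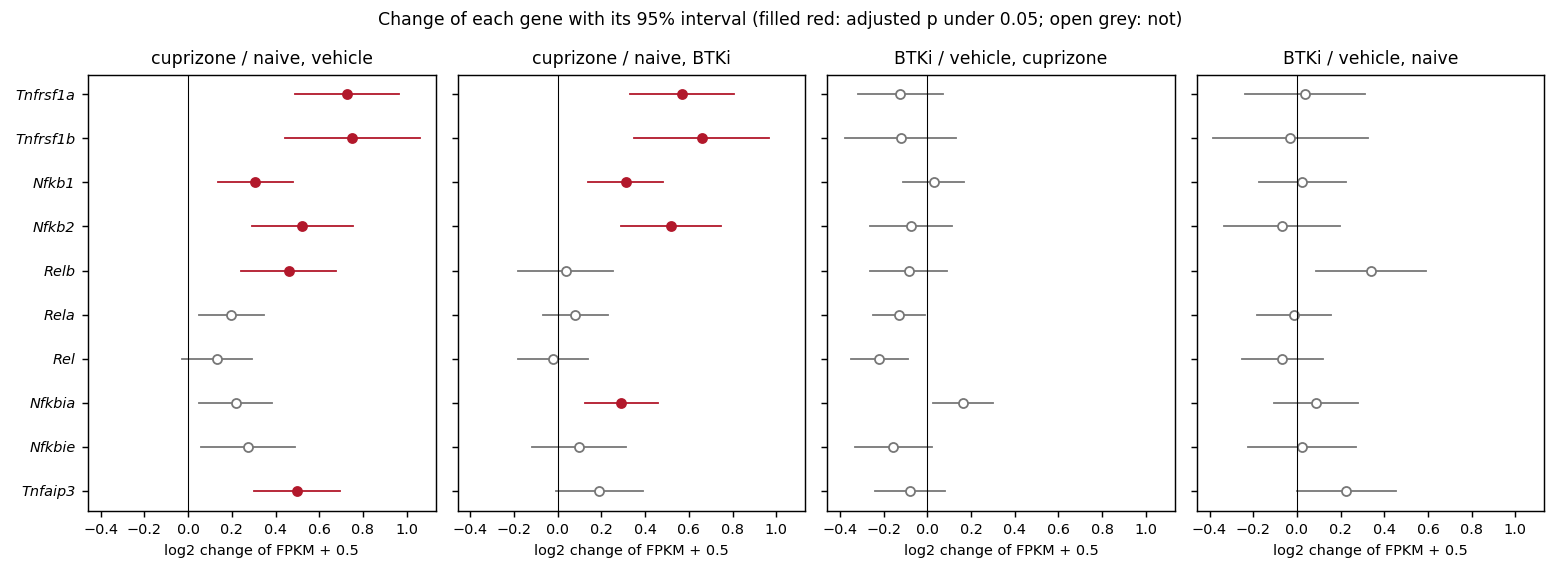
Log2 change of FPKM + 0.5 (horizontal axis) of each of the 10 genes in 4 comparisons, with its 95% interval. Filled red points passed an adjusted p of 0.05 and open grey points did not. In the panels of cuprizone over naive 6 genes passed under vehicle and 5 under BTKi, and in both panels of BTKi over vehicle 0 passed.

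Rel had the smallest p of the 10 genes. Its levels were 0.612, 0.742 and 0.845 FPKM (lowest, median and highest) in cuprizone BTKi libraries, against 0.715, 0.959 and 1.15 FPKM in cuprizone vehicle libraries. The groups overlapped, with 3 of 8 BTKi libraries below every vehicle library and 0 above. The log2 change was -0.22 (SE 0.06, 95% interval -0.35 to -0.09, limma adjusted p = 0.219), and over the alternative settings the adjusted p ran from 0.107 to 0.411. Rel lay at the 7.07th percentile of genes tested by mean FPKM (mean 0.819 FPKM), the lowest of the 10.

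Nfkbia, in contrast, was at 15.4, 17.4 and 21.2 FPKM (lowest, median and highest) in cuprizone BTKi libraries, against 13.9, 15.3 and 19.2 FPKM in cuprizone vehicle libraries. The change was 0.16 (95% interval 0.03 to 0.30, limma adjusted p = 0.466), with 1 BTKi library above every vehicle library. Rela was at 9.71, 10.4 and 13.0 FPKM in cuprizone BTKi libraries and at 9.85, 12.1 and 13.6 FPKM in cuprizone vehicle libraries. Its change was -0.13 (95% interval -0.25 to -0.01, adjusted p = 0.519), and the ranges overlapped almost wholly.

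For the other genes the intervals bound what these libraries allow. The change was -0.12 for Tnfrsf1a (95% interval -0.32 to 0.07), -0.12 for Tnfrsf1b (-0.37 to 0.13), 0.03 for Nfkb1 (-0.11 to 0.17) and -0.08 for Nfkb2 (-0.26 to 0.11). It was -0.09 for Relb (-0.26 to 0.09), -0.16 for Nfkbie (-0.33 to 0.02) and -0.08 for Tnfaip3 (-0.24 to 0.08). The microglia markers, which moved with the receptors in the cuprizone comparisons, had 0 of 10 called between BTKi and vehicle in cuprizone mice, with a median change of -0.07. With single libraries left out the change ran from -0.19 to -0.02 for Tnfrsf1b and from -0.19 to -0.05 for Tnfrsf1a. For both it was nearest to 0 without cuprizone vehicle 8. Over all alternative settings the lowest changes were -0.27 for Tnfrsf1b and -0.21 for Tnfrsf1a.

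Within naive mice, BTKi against vehicle likewise gave 0 of 10 genes by limma, where 0.217% of all genes tested (33 of 15216) were called. One gene, Relb, had an unadjusted p under 0.05, where the figure over all genes tested was 12.6%. Relb measured 2.45, 2.86, 3.19 and 3.20 FPKM in naive BTKi libraries, against 2.53, 2.07, 1.68 and 2.62 FPKM in naive vehicle libraries. The groups overlapped through naive BTKi 1, and the change was 0.34 (95% interval 0.09 to 0.59, limma adjusted p = 0.244). Tnfaip3 measured 1.29, 1.39, 1.78 and 1.56 FPKM in naive BTKi libraries, against 1.24, 1.26, 1.26 and 1.08 FPKM in naive vehicle libraries. It was the 1 gene of the 10 whose BTKi libraries all lay above the vehicle libraries, where the figure over all genes tested was 2.43%, and its change of 0.23 did not pass (limma adjusted p = 0.398). The remaining 8 genes had changes from -0.07 to 0.09, and their median with Relb and Tnfaip3 included was 0.02. Summed oligodendrocyte markers did not overlap between these groups, at 1275 to 1328 FPKM in naive BTKi and 1555 to 2232 FPKM in naive vehicle libraries. The oligodendrocyte, striatal neuron and choroid plexus markers all had negative changes here (medians -0.33, -0.48 and -0.48), with 0 of 8 called in each list. The part of these tissues in the changes of the 10 genes was not tested.

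The order of the group means fell into a few shapes. For Tnfrsf1a, Tnfrsf1b and Nfkb2 it was cuprizone vehicle, cuprizone BTKi, then the naive groups, with a gap between the ranges of the lower cuprizone group and the higher naive group and overlap within each pair. For Nfkb1 it was cuprizone BTKi, cuprizone vehicle, naive BTKi and naive vehicle, and the cuprizone vehicle and naive BTKi ranges did not overlap. Relb and Tnfaip3 ran cuprizone vehicle, cuprizone BTKi, naive BTKi and naive vehicle, the same order of means as for Tnfrsf1a and Nfkbie. Naive vehicle thus stood lowest, as it also did for Nfkb1 and Nfkbia. For Tnfaip3 the naive vehicle range was apart from that of naive BTKi. Nfkbia ran cuprizone BTKi, cuprizone vehicle, naive BTKi and naive vehicle, with overlap between all neighbours. Rel was the exception at the low end, since cuprizone BTKi had its lowest mean, with overlap between all neighbours. Rela and Nfkbie ran with cuprizone vehicle highest, and all their neighbours overlapped.

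The rest of the pathway was read from gene lists in the same fits. In the cuprizone comparisons the other receptors (5 of 7 tested in both) and the targets (10 and 8 of 14 tested under vehicle and BTKi) had the largest shares of called genes among these lists, while the IKK and NIK kinases and their partners held 0 of 10. The filter used the mean over all 24 libraries, so a gene low in naive mice could pass it through its cuprizone level. Cxcl10, Il1a, Btk and Bcl3, for instance, had naive vehicle means under 0.5 FPKM. The lists were also chosen with earlier results of these data known, so these shares do not test the lists. The same lists gave 0 called genes in both comparisons of BTKi with vehicle, where 0.177% (cuprizone) and 0.217% (naive) of all genes tested were called. With so few calls over all genes, a count of 0 says little about a list. The counts by list stand beside 10.2% of all genes called higher and 4.82% called lower under vehicle, and 6.11% and 1.77% under BTKi.

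**Figure D4:**
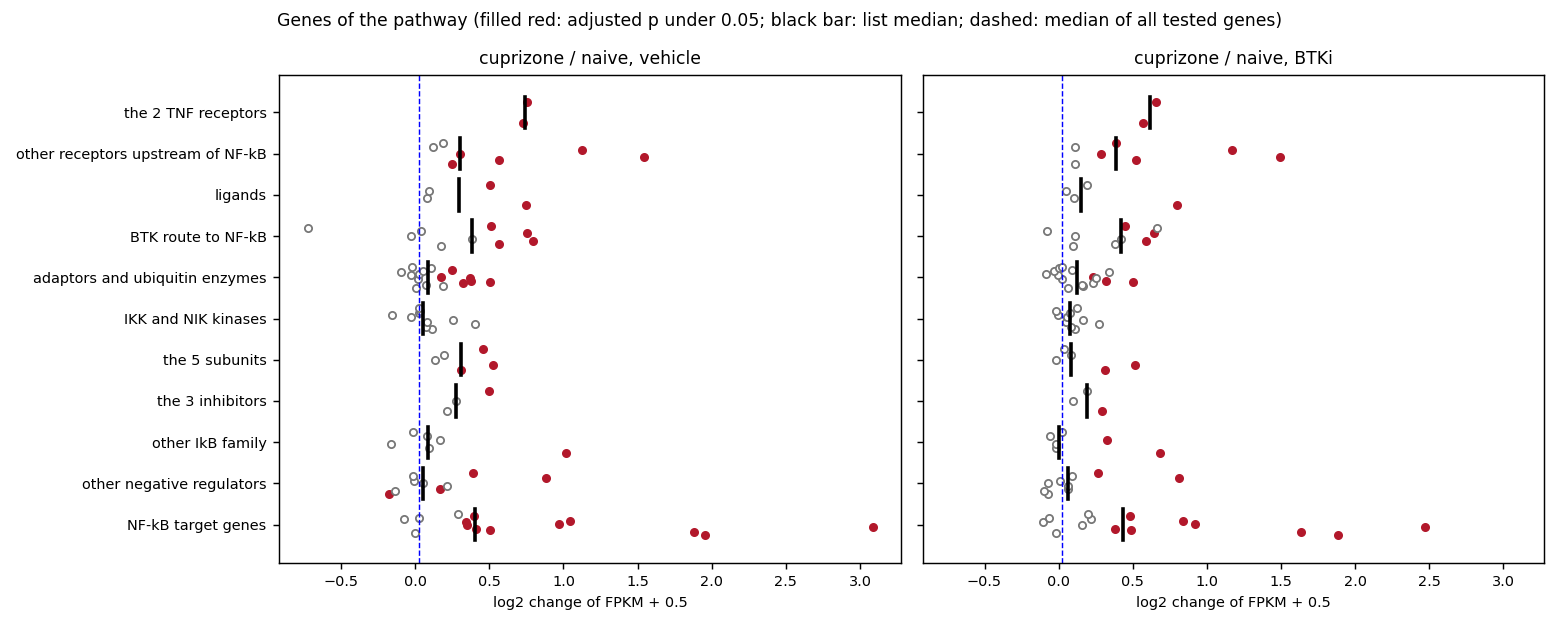
Log2 change of FPKM + 0.5 (horizontal axis) of the tested genes of each list (vertical axis), cuprizone over naive under vehicle at the left and under BTKi at the right. Red points passed an adjusted p of 0.05, open points did not, black bars are list medians and the dashed line is the median of all tested genes (0.03 and 0.02). Target genes reach furthest to the right, at 3.09 under vehicle and 2.47 under BTKi. No gene in the list of IKK and NIK kinases and their partners is red.

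Of the ligands, 4 of 11 passed the filter, and TNF itself was not among them. Il1a, which encodes interleukin-1 alpha, averaged 0.789 ± 0.291 FPKM (SD, n = 8) in cuprizone vehicle and 0.253 ± 0.0416 FPKM (SD, n = 4) in naive vehicle mice, a change of 0.75 (limma adjusted p = 0.000325). Under BTKi it changed by 0.80 (adjusted p = 0.000254). Tnfsf13b, a survival factor for B cells, changed by 0.50 under vehicle (adjusted p = 0.00372). Among other receptors upstream of NF-kappaB, 7 of 10 passed the filter and 5 of those 7 were higher, 0 lower, in each comparison. Tlr2, a receptor for bacterial lipoproteins, changed by 1.54 under vehicle and 1.49 under BTKi (adjusted p = 1.91e-05 and 5.61e-05), and Tlr7, a receptor for RNA, by 1.13 and 1.17 (adjusted p = 5.17e-05 and 6.03e-05). Ltbr, the lymphotoxin beta receptor that feeds the slower route, changed by 0.56 and 0.52 (adjusted p = 0.000497 and 0.00189). Tlr3, a receptor for double-stranded RNA, changed by 0.30 under vehicle (adjusted p = 0.00263), and Tnfrsf12a, the receptor of the ligand TWEAK, by 0.39 under BTKi (adjusted p = 0.0315), a call that 12 of 34 alternative settings lost.

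On the route from BTK towards NF-kappaB, 4 of 9 tested genes were higher under vehicle and 3 under BTKi, with 0 lower. Btk itself averaged 0.986 ± 0.385 FPKM (SD, n = 8) in cuprizone vehicle and 0.334 ± 0.0411 FPKM (SD, n = 4) in naive vehicle mice, a change of 0.80 (limma adjusted p = 0.000627). Plcg2, the phospholipase that BTK phosphorylates, changed by 0.76 under vehicle and 0.64 under BTKi (adjusted p = 0.000224 and 0.00192). Syk, the kinase before BTK, changed by 0.51 under vehicle (adjusted p = 0.00532), and Blnk, their scaffold, by 0.57 (adjusted p = 0.00219). Under BTKi the change was 0.59 for Btk and 0.44 for Syk (adjusted p = 0.0145 and 0.0243), calls that 2 and 6 of 34 alternative settings lost (highest adjusted p = 0.0717 and 0.115, both without naive BTKi 3). The BTKi group of cuprizone mice had 0.787 ± 0.238 FPKM of Btk, against 0.986 ± 0.385 FPKM in cuprizone vehicle mice, a change of -0.19 (adjusted p = 0.705).

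Of 16 adaptors and ubiquitin enzymes, 6 were higher under vehicle and 3 under BTKi, with 0 lower. Irak4, a kinase bound to Myd88, changed by 0.51 and 0.50 under vehicle and BTKi (limma adjusted p = 0.00385 and 0.00661). Myd88, the adaptor of interleukin-1 and Toll-like receptors, changed by 0.38 under vehicle (adjusted p = 0.00352), and Ripk1, recruited by Tnfrsf1a, by 0.37 (adjusted p = 0.00512). Irak2, a further Irak kinase, changed by 0.32 under vehicle (adjusted p = 0.00739). Rnf31, a subunit of the linear ubiquitin ligase, changed by 0.23 under BTKi (adjusted p = 0.00485), a call lost with the replicate block (adjusted p = 0.0522). Myd88 changed by 0.32 under BTKi (adjusted p = 0.0205), a call lost with quantile normalization, with the replicate block and without naive BTKi 2 or 3 (highest adjusted p = 0.118). The list's median change, 0.09 under vehicle and 0.12 under BTKi, stayed near that of all genes. Of the 10 IKK and NIK kinases and their partners, 0 were called by limma in either comparison. In this list 3 genes under vehicle and 1 under BTKi had an unadjusted p under 0.05. The figures over all genes tested were 27.4% and 18.5%, so these counts do not stand out. The smallest p under vehicle belonged to Ikbke, with a change of 0.40 (adjusted p = 0.0694), and under BTKi to Tbk1, at 0.12 (adjusted p = 0.231).

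Beyond the inhibitors described above, the other IkappaB family genes gave 1 higher of 6 under vehicle and 2 under BTKi, with 0 lower. Bcl3, a nuclear member that works with dimers of the small subunits, averaged 1.07 ± 0.456 FPKM (SD, n = 8) in cuprizone vehicle and 0.252 ± 0.0527 FPKM (SD, n = 4) in naive vehicle mice, a change of 1.02 (limma adjusted p = 0.000257). It changed by 0.68 under BTKi (adjusted p = 0.0165), a call lost without naive BTKi 3 (adjusted p = 0.112). Nfkbiz, another nuclear member, changed by 0.33 under BTKi (adjusted p = 0.00959), lost without naive BTKi 3 and with quantile normalization (adjusted p = 0.0749 and 0.0767). Of the other negative regulators, 9 of 12 passed the filter, with 3 higher and 1 lower under vehicle and 2 higher and 0 lower under BTKi. Tnfaip8l2, a suppressor of immune cell activation, changed by 0.88 and 0.81 (adjusted p = 0.00111 and 0.00377), and Tnip2, which binds Tnfaip3, by 0.39 and 0.26 (adjusted p = 0.00117 and 0.0422), the second of these a call that 17 of 34 alternative settings lost. N4bp1, an RNA-degrading regulator, changed by 0.17 under vehicle (adjusted p = 0.0173), a call that 6 of 34 lost. The gene that was lower was Cyld, a deubiquitinase, at -0.18 (adjusted p = 0.0370), a call that 12 of 34 alternative settings lost (highest adjusted p = 0.209, without naive vehicle 2).

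Of the known target genes, 14 of 20 passed the filter, with 10 higher under vehicle and 8 under BTKi and 0 lower in either. Their median change was 0.40 under vehicle and 0.43 under BTKi. Cxcl10, a chemokine that interferon also induces, averaged 7.24 ± 2.69 FPKM (SD, n = 8) in cuprizone vehicle and 0.403 ± 0.316 FPKM (SD, n = 4) in naive vehicle mice, a change of 3.09 (limma adjusted p = 6.14e-09). Ccl5, a T cell chemokine, changed by 1.88 and Icam1, an adhesion molecule, by 0.97 under vehicle (adjusted p = 1.88e-06 and 9.26e-05), and by 1.63 and 0.92 under BTKi (adjusted p = 2.92e-05 and 0.000294). Bcl2a1b, a survival gene with near-identical copies whose reads may be shared among them, changed by 1.95 under vehicle and 1.89 under BTKi (adjusted p = 4.82e-05 and 0.000129). Plau, a secreted protease, changed by 1.04 under vehicle (adjusted p = 0.000103).

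Between BTKi and vehicle in cuprizone mice, 0 genes of these lists were called by limma, where 0.177% of all genes tested were called. Of the 14 tested targets 3 had an unadjusted p under 0.05, where the figure over all genes tested was 8.79%. The target with the smallest p was Csf1, a growth factor of microglia, at 8.17 ± 0.896 FPKM in cuprizone BTKi and 10.1 ± 2.06 FPKM in cuprizone vehicle mice (SD, n = 8 each; change -0.28, limma adjusted p = 0.279). Tnfrsf12a stood at 5.33 ± 0.869 FPKM in cuprizone BTKi and 4.18 ± 0.689 FPKM in cuprizone vehicle mice (change 0.31, adjusted p = 0.234). Map3k14, which encodes NIK, had a change of -0.19 (adjusted p = 0.494), Traf2, an adaptor of both TNF receptors, -0.13 (adjusted p = 0.481) and Tnip2 -0.17 (adjusted p = 0.445). In naive mice the smallest p among the adaptors was that of Traf1, at 0.394 ± 0.0567 FPKM under BTKi and 0.779 ± 0.170 FPKM under vehicle (SD, n = 4 each; change -0.51, adjusted p = 0.130). The immediate early genes, which answer many signals within minutes, had 7 of 14 lower and 0 higher in cuprizone BTKi against cuprizone vehicle mice, where 0.138% of all genes were called lower.

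For each gene called in a comparison, the 3 genes whose centred log2 values over the 24 libraries lay closest were looked up by mean absolute difference. Closest to Tnfrsf1b were Cx3cr1 (0.0805), Arhgap30 (0.0858) and Slco2b1 (0.0877), where Tnfrsf1b itself deviated from its mean by 0.347 on average. Cx3cr1, a fractalkine receptor, is 1 of the 10 microglia markers. Closest to Tnfrsf1a were Cebpa (0.0584), Cotl1 (0.0647) and Man2b1 (0.0836), and closest to Nfkb2 were Nfe2l2 (0.0796), Ltbr (0.0800) and Nfatc1 (0.0842). For Nfkb1 they were Sall1, Pabpc1 and Rps9, for Relb Zfp703, Lmna and Gadd45a, for Nfkbia Pcdhgc3, Tns3 and Fkbp5, and for Tnfaip3 Zbtb2, Axin1 and Slc1a4. Genes with small spread come close to any other such gene, which applies most to Nfkb1 and Nfkbia, whose own average deviations were 0.158 and 0.155. Relb and Tnfaip3 deviated by 0.175 and 0.176, and even their nearest genes lay at 0.110 and 0.0950, large beside those deviations.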

How the data were processed

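The deposited table holds FPKM values made by the authors, 1 column per library. Per the labels' protocols, RNA was prepared with Qiagen RNeasy Micro and TruSeq stranded mRNA kits. Aligner, genome build, strand setting and fragment counts are not given in the sources used, so depth is unknown. Of the gene IDs, 53229 matched GENCODE M21 with their version. From these values log2(FPKM + 0.5) was computed and tested with limma 3.58.1 (R 4.3.3) on 15216 genes with mean FPKM of at least 0.5, with all 4 groups in 1 model, a trended prior, and p-values adjusted by Benjamini-Hochberg per comparison (threshold 0.05). Promoters, levels and figures used Python 3.11.15, pandas 2.3.3, numpy 2.4.6 and matplotlib 3.10.9. The script was tested on simulated data. Named were all 10 genes, up to 4 called genes of each pathway list and comparison by absolute change (otherwise the gene with the smallest p), and the 3 nearest genes of each called gene. Marker lists are given by sums and counts. The genes and lists were chosen with earlier results of these data known. Alternatives were pseudocounts of 0.1 and 1, no filter, 3 other scalings, a fit on only the groups compared, a replicate block, each library left out, and 2 sets of libraries left out.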

Additional observations from a re-analysis of the deposited data

Results flagged for a closer look

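Each of the 10 genes was examined in each of the 4 groups for a library far from the rest, by the gap to its nearest neighbour over the range of the group. Of 40 such sets 3 held one, and chance gives about 1 in 20. Tnfaip3 stood at 2.84 FPKM in cuprizone vehicle 8, and Tnfrsf1a stood at 8.76 FPKM in cuprizone BTKi 8, both above the rest of their groups. These are the libraries highest in microglia markers in their groups, and the part of those markers in the values was not tested. Tnfaip3 stood at 1.08 FPKM in naive vehicle 4, below the other 3 libraries of its group.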

How the results depend on the processing

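Each of the 10 genes that was called kept its direction in all 34 alternative settings of that comparison. The count of the 10 genes called with single libraries left out was 5 to 7 under vehicle and 3 to 5 under BTKi for cuprizone against naive, and 0 in the other comparisons. The call of Nfkb1 was lost without naive vehicle 4 under vehicle, and without naive BTKi 2 or 4 under BTKi. Nfkbia under BTKi was lost with no filter and without naive BTKi 1, 2 or 3. Rela under vehicle was gained without cuprizone BTKi 8, without cuprizone vehicle 4 and without the 3 libraries poor in choroid plexus markers, and Nfkbia under vehicle without cuprizone vehicle 1 (adjusted p = 0.0476). The cause of these changes was not tested.

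Over all genes, leaving out single libraries gave 1825 to 2392 calls for cuprizone against naive under vehicle, 860 to 1294 under BTKi, 14 to 34 for BTKi against vehicle in cuprizone mice, 7 to 41 in naive mice and 8 to 23 for the difference. BTKi against vehicle in cuprizone mice, 27 calls, gave 16 with no filter, 11 without the choroid-poor libraries and 15 without both libraries highest in microglia markers. In naive mice, 33 calls, it gave 21 with no filter, 18 rescaled by library total, 3 with only the groups compared and 19 without the choroid-poor libraries. The difference, 19 calls, gave 9 with the replicate block, 7 without the choroid-poor libraries and 11 without both libraries highest in microglia markers. Higher and lower calls under vehicle were 1555 and 733, against 1229 and 978 with median ratio scaling and 1205 and 1072 with quantile normalization. Under BTKi they were 929 and 269, against 772 and 406, and 724 and 395. For BTKi against vehicle in cuprizone mice they were 6 and 21, against 8 and 13 with quantile normalization and 2 and 17 rescaled. In naive mice they were 16 and 17, against 23 and 16 with median ratio scaling and 22 and 7 with quantile normalization.

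Values near 0 that changed sign, none of them called, were Relb for cuprizone against naive under BTKi, at -0.036 with quantile normalization and -0.034 to 0.076 with single libraries left out. For BTKi against vehicle in cuprizone mice Nfkb1 was -0.022 without the choroid-poor libraries and -0.015 to 0.062 with single libraries left out. In naive mice Rela was 0.0039 with median ratio scaling, 0.012 with quantile normalization and -0.040 to 0.029 with single libraries left out. Tnfrsf1b was 0.034 with quantile normalization and -0.10 to 0.037, Nfkb1 -0.017 to 0.10 and Nfkbie -0.068 to 0.11 with single libraries left out. For the difference Nfkb1 was -0.0084 with quantile normalization, -0.00051 rescaled, -0.047 without the choroid-poor libraries, -0.0083 without both libraries highest in microglia markers and -0.071 to 0.047 with single libraries left out. Nfkb2 was 0.0042 with a pseudocount of 0.1, 0.0045 without both libraries highest in microglia markers and -0.048 to 0.041 with single libraries left out, and Tnfrsf1b was -0.16 to 0.0062.

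Groups share replicate numbers in the labels. Deviations of same-numbered libraries correlated by -0.274 to 0.324. Differently numbered libraries were not compared, so whether the numbers pair the samples cannot be told from these values. With the replicate block 7 of the 10 genes were called under vehicle, Nfkbia added (0.28, adjusted p = 0.0408), 5 under BTKi and 0 otherwise, and the counts of all genes were 1859, 1009, 26, 27 and 9. FPKM without fragment counts limits what can be said of Rel, Nfkbie and Nfkb2, the lowest of the 10 genes.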

Other observations

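The ratio of Nfkbia to Rel FPKM, an inhibitor over a subunit, was chosen after the values were seen and is given without a test. It averaged 24.4 ± 4.36 (SD, n = 8) in cuprizone BTKi, 17.0 ± 2.48 (SD, n = 8) in cuprizone vehicle, 19.2 ± 2.75 (SD, n = 4) in naive BTKi and 16.6 ± 1.96 (SD, n = 4) in naive vehicle libraries. The cuprizone ranges were 20.3 to 30.8 under BTKi and 13.9 to 20.9 under vehicle. Nfkbia over Rela averaged 1.63 ± 0.166 and 1.33 ± 0.225 in cuprizone BTKi and cuprizone vehicle libraries, and 1.40 ± 0.126 and 1.30 ± 0.124 in naive BTKi and naive vehicle libraries.

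Nfkb1 took 32.9% ± 0.898 of the summed subunit FPKM in cuprizone BTKi and 30.3% ± 1.04 in cuprizone vehicle libraries (SD, n = 8 each), and Rel 3.07% ± 0.362 and 3.70% ± 0.466. Tnfrsf1a over Tnfrsf1b averaged 3.45 ± 0.333 and 3.43 ± 0.496 in cuprizone BTKi and cuprizone vehicle libraries, and 4.18 ± 0.394 and 3.97 ± 0.645 in naive BTKi and naive vehicle libraries.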
